A study of Rattus norvegicus with 8 samples.

Results

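Transcripts of 6 genes that sense cellular iron or control the turnover of ferritin were examined in rat liver under dietary iron deficiency. They were Aco1, Ireb2, Fbxl5, Ncoa4, Pcbp1 and Pcbp2, and every probe set that the platform annotation pairs with exactly one of these symbols was taken. This gave 8 probe sets, 1 for each gene except Pcbp2, which had 3, and 6 of the 14217 genes named on the array. All members had a value on every array, and none was lost to a filter. All livers came from male rats of the outbred Sprague-Dawley strain, 7 weeks old. The 4 iron-deficient livers were from rats given an AIN93G-based diet without ferric citrate, and the 4 control livers from rats given the same diet with it, in both cases with Avicel in place of cellulose. Both groups were killed on day 17 of the treatment, with food available for the last 1.5 h, when blood hemoglobin of the iron-deficient rats was 42% of the control level. Diets were given to 7 and 6 rats, and which of them gave the arrays is not stated in the labels.

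Mammalian cells adjust iron uptake and storage mainly after transcription. The 2 iron regulatory proteins, IRP1 (encoded by Aco1) and IRP2 (encoded by Ireb2), bind short RNA hairpins called iron-responsive elements, which blocks translation of ferritin mRNA and stabilises the mRNA of the transferrin receptor. IRP1 binds RNA when it lacks its iron-sulphur cluster and acts as a cytosolic aconitase when it holds one, whereas IRP2 is removed in iron-replete cells by a ubiquitin ligase whose substrate receptor is FBXL5, itself stabilised by iron and oxygen. NCOA4 carries ferritin to the lysosome, where its iron is released, and is degraded through HERC2 when iron is plentiful. PCBP1 and PCBP2 are RNA-binding proteins that also act as chaperones which deliver iron to ferritin. Most of this control acts on protein, so the transcript values below describe only 1 level of it.

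The values are deposited log2 values in which differences between arrays are very small. They are read here as compressed, by an amount that may differ from one probe set to the next, although the processing that would show this is not given. Over all 31042 tested probe sets the median within-group SD was 7.82e-06 and the median absolute difference between the diets 4.49e-06. A difference on this scale is not a fold change, and its size cannot be set against that of another probe set. Each difference is therefore given with its standard error and as a standardised difference, that is, divided by the within-group SD. Across the arrays, 16 of 16 measured hepatocyte markers lay between the 94.8th and the 100th percentile of probe set levels, so the tissue label and its defining markers match.

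None of the 8 member probe sets passed an adjusted p of 0.05 in limma, where 10 of all 31042 did (0.0322%). At an unadjusted p under 0.05 in limma there was 1 member, Fbxl5, against 11.4% of all probe sets. Fbxl5 was also the only 1 of the 8 whose groups did not overlap, against 6.48% of all probe sets (3.41% lower and 3.07% higher). By sign, 4 member probe sets were higher and 4 lower in iron-deficient livers. Per gene, with the brightest probe set standing for it, 3 were higher and 3 lower, and the median standardised difference was 0.0209, where that of all 14217 genes was -0.0727.

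**Figure D1:**
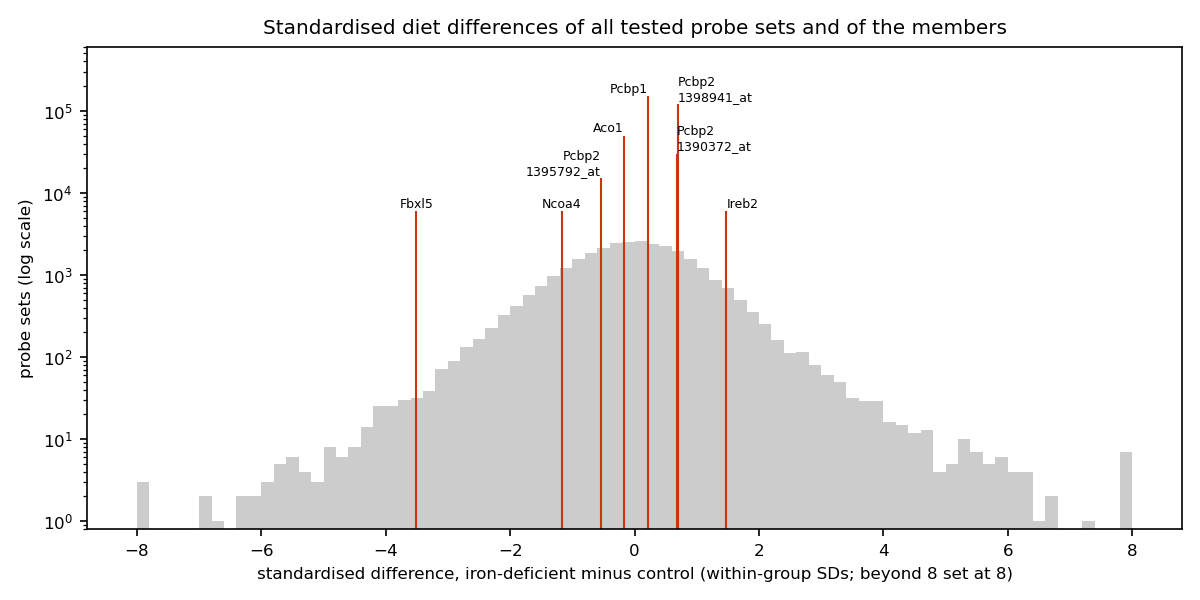
Standardised difference between diets (x axis, in within-group SDs, iron-deficient minus control) of all tested probe sets (grey bars, counted on a log axis) and of the 8 member probe sets (red lines, whose height has no meaning). Fbxl5 at -3.51 lies in the lower tail, Ireb2 at 1.48 and Ncoa4 at -1.17 lie within the bulk, and the Aco1, Pcbp1 and Pcbp2 lines stand near the centre.

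The upstream sequences of Fbxl5, Ireb2 and Ncoa4, the members with the largest standardised differences, show what lies before these genes. They are from RefSeq (GRCr8) and run from 250 bases before to 50 bases after the transcript start that the table uses. The letters ACGTG, 1 form of the core of the hypoxia response element, were searched on both strands and are in capitals. They were chosen because the hypoxia-inducible factors that bind this core are controlled by iron-dependent hydroxylases. The form of the core that begins with G, GCGTG, was not searched.
Fbxl5, chr14:71521349-71521648, plus strand: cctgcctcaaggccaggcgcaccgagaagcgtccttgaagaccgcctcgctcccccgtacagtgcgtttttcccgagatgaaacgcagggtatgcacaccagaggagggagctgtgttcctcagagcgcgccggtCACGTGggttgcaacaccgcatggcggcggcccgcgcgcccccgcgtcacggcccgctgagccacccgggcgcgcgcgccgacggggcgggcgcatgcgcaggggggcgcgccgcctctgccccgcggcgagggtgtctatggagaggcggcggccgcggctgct
Ireb2, chr8:64160838-64161137, plus strand: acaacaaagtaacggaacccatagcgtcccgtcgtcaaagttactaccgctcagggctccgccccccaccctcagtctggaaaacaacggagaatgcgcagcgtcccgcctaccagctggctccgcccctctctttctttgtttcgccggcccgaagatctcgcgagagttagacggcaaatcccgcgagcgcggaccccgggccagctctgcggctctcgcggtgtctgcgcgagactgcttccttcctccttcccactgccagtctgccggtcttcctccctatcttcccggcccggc
Ncoa4, chr16:7401541-7401840, plus strand: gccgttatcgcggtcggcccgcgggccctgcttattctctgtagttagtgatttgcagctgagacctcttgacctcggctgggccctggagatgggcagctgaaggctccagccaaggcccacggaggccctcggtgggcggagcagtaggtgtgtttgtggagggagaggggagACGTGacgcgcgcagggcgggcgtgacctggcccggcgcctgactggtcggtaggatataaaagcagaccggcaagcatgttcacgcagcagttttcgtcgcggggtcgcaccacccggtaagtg
In the Fbxl5 sequence, ACGTG was found on both strands as 1 palindromic CACGTG, which begins 115 bases upstream of the start and is also the letters of an E-box. In the Ncoa4 sequence it was found once, 75 bases upstream, and in the Ireb2 sequence not at all. Of the 6 member genes, 3 had an ACGTG match, the third being Pcbp1, and Aco1, Ireb2 and Pcbp2 had no ACGTG in this window. A window without ACGTG may still hold GCGTG. The palindrome CACGTG was held by 2 members, Fbxl5 and Pcbp1. In the Pcbp1 sequence it begins 187 bases upstream, and a further ACGTG match begins 62 bases upstream. Of all 33469 upstream sequences in the table, 19.3% held ACGTG and 6.42% held CACGTG. These shares were not matched for base composition, and the member sequences were 63.3% to 73.3% G and C, so an excess cannot be read from them. A match describes the letters and does not show that a factor binds there.

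Aco1 encodes IRP1, the regulatory protein that becomes an aconitase when loaded with an iron-sulphur cluster. Its values read 10.158275, 10.158295, 10.158254 and 10.158305 in iron-deficient replicates 1 to 4, and 10.158288, 10.158285, 10.158280 and 10.158288 in the controls. The iron-deficient livers lay on both sides of the controls, 2 above all of them and 2 below. The difference was -2.87e-06 ± 1.10e-05 (SE, 4 livers per diet), or -0.18 as a standardised difference, with a 95% interval of -1.80 to 1.45 SD and a limma adjusted p of 0.958. The spread itself was unequal. Iron-deficient livers had an SD of 2.25e-05 and controls one of 4.09e-06, a ratio of 5.50 that lies at the 99.0th percentile of such ratios over all probe sets, whose median was 1.01.

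Ireb2 encodes IRP2, the regulatory protein whose level is set by its degradation. Values of 7.908160, 7.909145, 7.908581 and 7.908999 were read in iron-deficient replicates 1 to 4. The controls read 7.908672, 7.907709, 7.907103 and 7.908084. All 4 iron-deficient livers were above the control mean, but only replicates 2 and 4 were above the highest control, replicate 1, so the groups overlapped. The difference was 8.29e-04 ± 3.80e-04 (SE, 4 livers per diet), or 1.48 SD with a 95% interval of -0.14 to 3.10 SD, and it did not pass (limma adjusted p = 0.478). Its sign was positive under every normalization tried and with any array left out. On the deposited scale the within-group SD of Ireb2 lay at the 96.3rd percentile, which cannot tell more variation from weaker compression.

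Fbxl5 encodes the receptor subunit of the ubiquitin ligase that marks IRP2 for degradation and binds iron through its own hemerythrin domain. It read 8.963680, 8.963700, 8.963676 and 8.963678 in iron-deficient replicates 1 to 4 and 8.963736, 8.963729, 8.963735 and 8.963707 in the controls. Every iron-deficient liver was below every control, and the nearest pair was iron-deficient replicate 2 and control replicate 4. The means were 8.963684 ± 1.09e-05 and 8.963727 ± 1.38e-05 (SD, n = 4 each). The difference of -4.35e-05 ± 8.42e-06 (SE) was a standardised difference of -3.51, with a 95% interval of -5.13 to -1.88 SD. It did not pass over all probe sets (limma adjusted p = 0.161, unadjusted p = 0.00158), although its absolute moderated t lay at the 99.0th percentile. Over the 16 alternatives the limma adjusted p ran from 0.137 to 0.988.

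The lower sign of Fbxl5 was kept with each array left out and under both quantile normalizations, but turned to 7.05e-06 when each array was centred on its median. That step adds 5.06e-05 to every difference, which is more than the Fbxl5 difference itself, and array medians differ among themselves by up to 7.40e-04. In bulk liver, fewer cells of a type that express a gene and less of its RNA per cell cannot be told apart. Markers of several other cell types were mostly higher in the same comparison, but no gene of any marker list passed in its brightest probe set. Of 16 measured endothelial markers, 14 were higher and 10 did not overlap between the groups, against 3.42% of all genes not overlapping and higher. Their summed log2 level was 141.429 to 141.432 in iron-deficient and 141.423 to 141.424 in control livers. None of these endothelial markers lay under the 25th percentile of levels. Since compression may differ between probe sets, this sum and those below may weigh the least compressed markers most. They do not measure the number of cells. Stellate and fibroblast markers had 11 of 16 higher, 5 of them without overlap. They summed to 123.452 to 123.466 and 123.444 to 123.449, with Hgf, Ngfr and Lum under the 25th percentile. Kupffer and macrophage markers had 12 of 13 higher, 2 of them without overlap. They summed to 124.748 to 124.755 and 124.743 to 124.747, with none under that percentile. Erythroid markers had 6 of 8 higher (1 without overlap) and lymphocyte and neutrophil markers 7 of 14 (0 without overlap). The sums of both lists overlapped between the groups. The part of any of these cell types in the Fbxl5 difference was not tested. Hepatocyte markers, 7 of 16 higher, summed to 217.207 to 217.209 in both groups. The 3' to 5' differences of actin (1.4064 to 1.4083 and 1.40722 to 1.40916) and Gapdh (1.16959 to 1.16967 and 1.16963 to 1.16984) overlapped between iron-deficient and control livers. Each is taken between separate probe sets, whose compression may differ, so the overlap cannot show that RNA integrity was alike.

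Ncoa4 encodes the receptor that brings ferritin to the autophagosome. Its iron-deficient values were 10.715945, 10.715885, 10.715857 and 10.716109, against 10.716008, 10.716028, 10.716087 and 10.716063 in the controls. Replicates 1 to 3 of the iron-deficient diet were below every control, and replicate 4 was above every control. The difference was -9.78e-05 ± 5.64e-05 (SE, 4 livers per diet), or -1.17 SD with a 95% interval of -2.79 to 0.45 SD (limma adjusted p = 0.579). Without iron-deficient replicate 4, left out here as 1 of the 8 arrays in turn, it was -1.51e-04 with a limma adjusted p of 0.257, so the sign remained and no call was made. The SD of iron-deficient livers was 3.22 times that of controls, at the 95.3rd percentile of all probe sets.

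**Figure D2:**
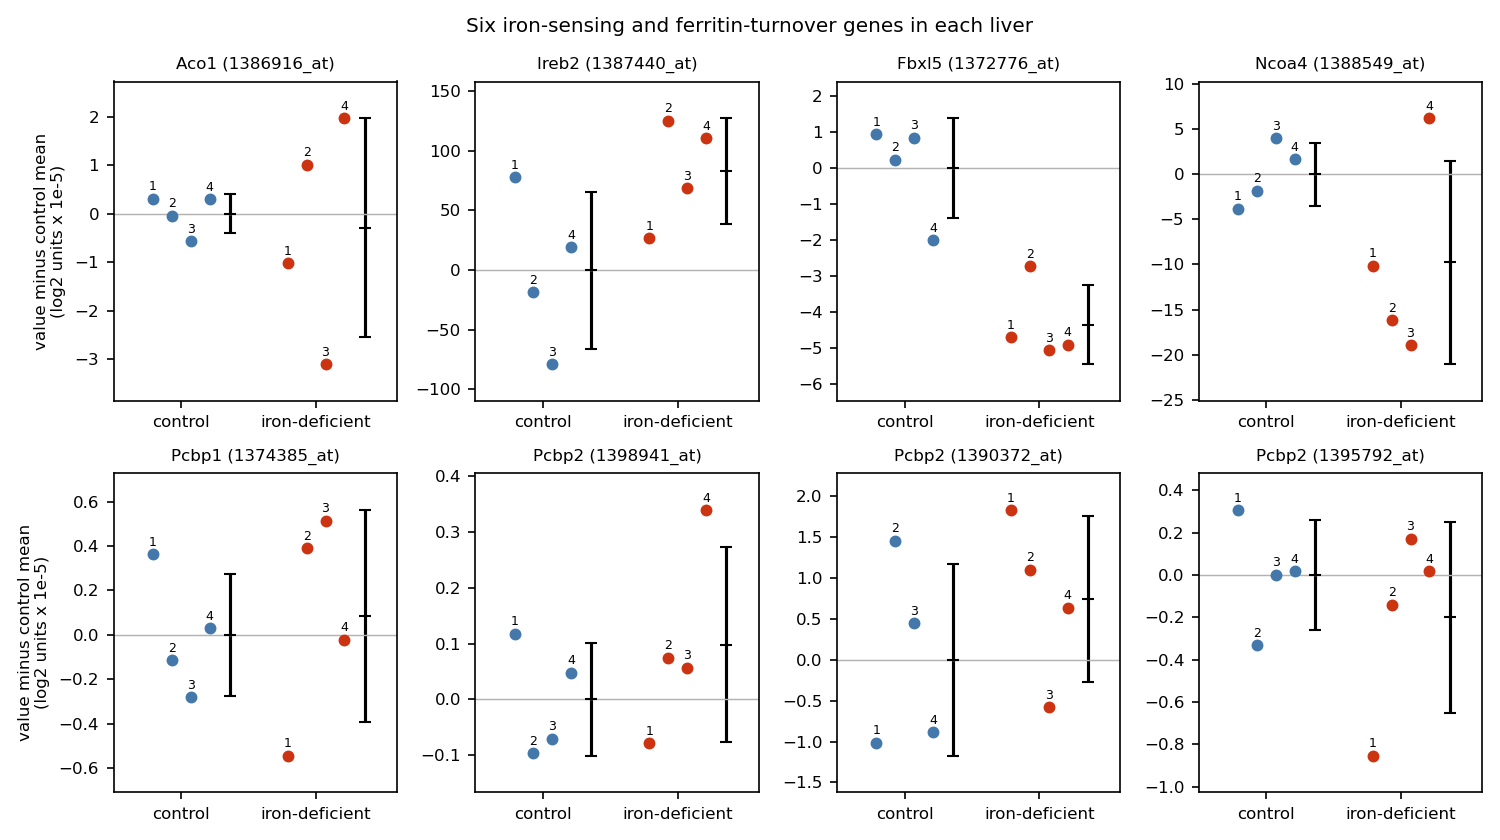
Value of each of the 8 member probe sets in each liver, as the difference from that probe set's control mean in log2 units times 1e-5 (y axis, with its own scale in each panel), for control (blue) and iron-deficient (red) livers. Small digits are replicate numbers and black bars the mean ± SD. Fbxl5 shows no overlap between the diets, iron-deficient replicate 4 of Ncoa4 stands above all controls, and the iron-deficient values of Aco1 spread to both sides of a narrow control group.

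Pcbp1 and Pcbp2 encode iron chaperones of ferritin that belong to the poly(rC)-binding family, and Pcbp1 is an intronless gene. Pcbp1 read 11.717869, 11.717878, 11.717879 and 11.717874 in iron-deficient and 11.717878, 11.717873, 11.717871 and 11.717875 in control livers. The groups overlapped, with a difference of 8.53e-07 ± 2.72e-06 (SE, n = 4 per group) and a 95% interval of -1.46 to 1.89 SD (limma adjusted p = 0.948). Its sign turned when iron-deficient replicate 2 or 3 or control replicate 3 was left out. Under quantile normalization of all probe sets the difference became 0.00328 with a limma adjusted p of 3.26e-07, but with the Hamp probe set left out before that step it was 3.16e-04 with an adjusted p of 0.558. Hamp, the hepcidin gene, read highest of all probe sets on all 4 control arrays and on 0 of the 4 iron-deficient arrays.

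The 3 Pcbp2 probe sets did not share a sign. The brightest, 1398941_at, differed by 9.85e-07 ± 1.19e-06 (SE, n = 4 per group, limma adjusted p = 0.820), with 1 iron-deficient liver, replicate 4, above all controls. The next, 1390372_at, differed by 7.44e-06 ± 7.43e-06 (limma adjusted p = 0.775), with replicate 1 above all controls. The third, 1395792_at, differed by -2.00e-06 ± 2.59e-06 (limma adjusted p = 0.836), and its level lay at the 13.7th percentile, so expression above background was not shown for it. Their 95% intervals were -1.30 to 2.68, -0.95 to 2.31 and -2.22 to 1.14 SD. The mean of the 3 probe sets did not pass either. The level of the first 2 lay at the 97.9th and 77.7th percentiles of all probe sets.

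Among the RNAs that the iron regulatory proteins bind, the call was for Tfrc. Of 11 listed transcripts with an iron-responsive element, 8 were measured through a probe set with 1 symbol, 5 higher and 3 lower, and 1 passed. Their median standardised difference was 0.83, against -0.07 for all genes. Tfrc, whose mRNA the proteins stabilise, rose in both of its probe sets, by 0.0373 ± 0.00145 (limma adjusted p = 0.00120) and by 0.0854 ± 0.00600 (limma adjusted p = 0.0183), with SE and n = 4 per group. The brighter of these read 11.016092 to 11.021574 in iron-deficient and 10.979681 to 10.982364 in control livers. The brighter kept its call whichever array was left out, and the dimmer lost it without any one array other than iron-deficient replicate 3 or control replicate 1 (limma adjusted p up to 0.111). Slc11a2, the transporter DMT1, differed by 1.10e-04 ± 1.92e-05 with no overlap between groups but did not pass (limma adjusted p = 0.137), and its other probe set read -2.14e-05 ± 1.04e-05. Epas1, which encodes HIF-2 alpha, differed by 8.83e-06 ± 4.10e-06 (limma adjusted p = 0.482). Under quantile normalization of all probe sets Epas1 passed as higher (0.00311, limma adjusted p = 9.05e-06), but not with Hamp left out before it (adjusted p = 0.650). The ferritin genes Fth1 and Ftl1 were not analysed here.

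Partners of ferritin in iron entry and storage showed no call in the values as deposited. Of 13 listed genes 9 were measured, 4 higher and 5 lower, with a median standardised difference of -0.48. Slc25a28, the mitochondrial iron importer mitoferrin 2, was lower without overlap at -2.40e-05 ± 6.11e-06 (limma adjusted p = 0.25). Steap3, a ferrireductase of the endosome, differed by -8.72e-05 ± 2.64e-05 and Tfr2, the liver iron-sensing receptor, by 4.31e-06 ± 1.98e-06 (limma adjusted p = 0.316 and 0.480). With Hamp left out before quantile normalization the sign of Tfr2 turned and it passed as lower (-9.45e-04, limma adjusted p = 0.00503).

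In the values as deposited, the other subunits and partners of the ubiquitin ligases that act on IRP2 and NCOA4 mostly had the opposite sign to Fbxl5. All 9 listed genes were measured, 8 higher and 1 lower, none passed, and the median standardised difference was 1.05. Of all 14217 genes, 6684 were higher. Under median centring Fbxl5 was higher too (7.05e-06). Skp1 and Cul1, the adaptor and scaffold that hold FBXL5 in the ligase, differed by 1.60e-05 ± 9.16e-06 and 1.70e-05 ± 6.38e-06 (limma adjusted p = 0.573 and 0.399). Skp1 passed as higher under quantile normalization of all probe sets (0.00301, limma adjusted p = 2.38e-13), where with Hamp left out its difference was 0. Its SE under quantile normalization of all probe sets, 8.71e-06, was the same as that of the autophagy genes Gabarap and Tax1bp1. That p-value therefore does not measure the spread of Skp1 between livers. Snai1, a transcription factor that FBXL5 also targets, differed by 2.08e-05 ± 7.84e-06 (limma adjusted p = 0.399). Its sign turned (-4.80e-05) with Hamp left out before quantile normalization. Herc2, the ligase of NCOA4, differed by 8.17e-05 ± 4.53e-05 (limma adjusted p = 0.560). Ube2m, which attaches NEDD8 to cullins, was the 1 lower gene, at -2.95e-06 ± 1.31e-06 and without overlap (limma adjusted p = 0.463).

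Genes of the autophagy route that carries ferritin to the lysosome were measured for 19 of 22 listed, 6 higher and 13 lower, with a median standardised difference of -0.52 and none past the threshold. Tax1bp1, an autophagy receptor that takes part in ferritin turnover, was higher without overlap at 1.53e-05 ± 4.04e-06 (limma adjusted p = 0.264). Gabarap, a membrane anchor of autophagosomes, was lower without overlap at -2.03e-06 ± 8.38e-07 in its brighter probe set (limma adjusted p = 0.433), and its other probe set read -1.01e-05 ± 7.81e-06. Map1lc3a, of the same family, differed by -1.61e-05 ± 4.73e-06 (limma adjusted p = 0.303). Under quantile normalization of all probe sets Tax1bp1 passed as higher (6.14e-04, limma adjusted p = 4.21e-09), and the sign of Gabarap turned and it passed as higher (0.00253, limma adjusted p = 6.64e-13). With Hamp left out before that step both differences were 0. Under quantile normalization of all probe sets both genes had the same SE (8.71e-06), so these p-values do not measure their spread between livers. The genes without overlap were 2 of 19, against 7.82% of all genes.

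Cytosolic iron-sulphur cluster assembly, which supplies the cluster of IRP1, was measured for 13 of 15 genes, 6 higher and 7 lower, with a median standardised difference of -0.10 and no gene without overlap. Ciao2a, the targeting factor for IRP1, differed by 1.02e-05 ± 7.21e-06 (limma adjusted p = 0.658). Ciao2b, its paralog for other client proteins, differed by -6.93e-06 ± 3.60e-06 and Nubp1, a scaffold protein, by 3.13e-05 ± 2.05e-05 (limma adjusted p = 0.533 and 0.630). Of 10 genes that share the KH domain of PCBP1 and PCBP2 or depend on them, 8 were measured, 5 higher and 3 lower, with a median of 0.13. Khsrp, a decay factor of AU-rich mRNA, differed by -0.00110 ± 5.46e-04, Dohh, an iron enzyme that PCBP1 loads, by -1.51e-05 ± 8.58e-06, and Fubp3 by 1.14e-05 ± 6.96e-06 (limma adjusted p = 0.517, 0.570 and 0.601). Another Fubp3 probe set was higher without overlap at 5.79e-04 ± 1.85e-04 (limma adjusted p = 0.335).

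**Figure D3:**
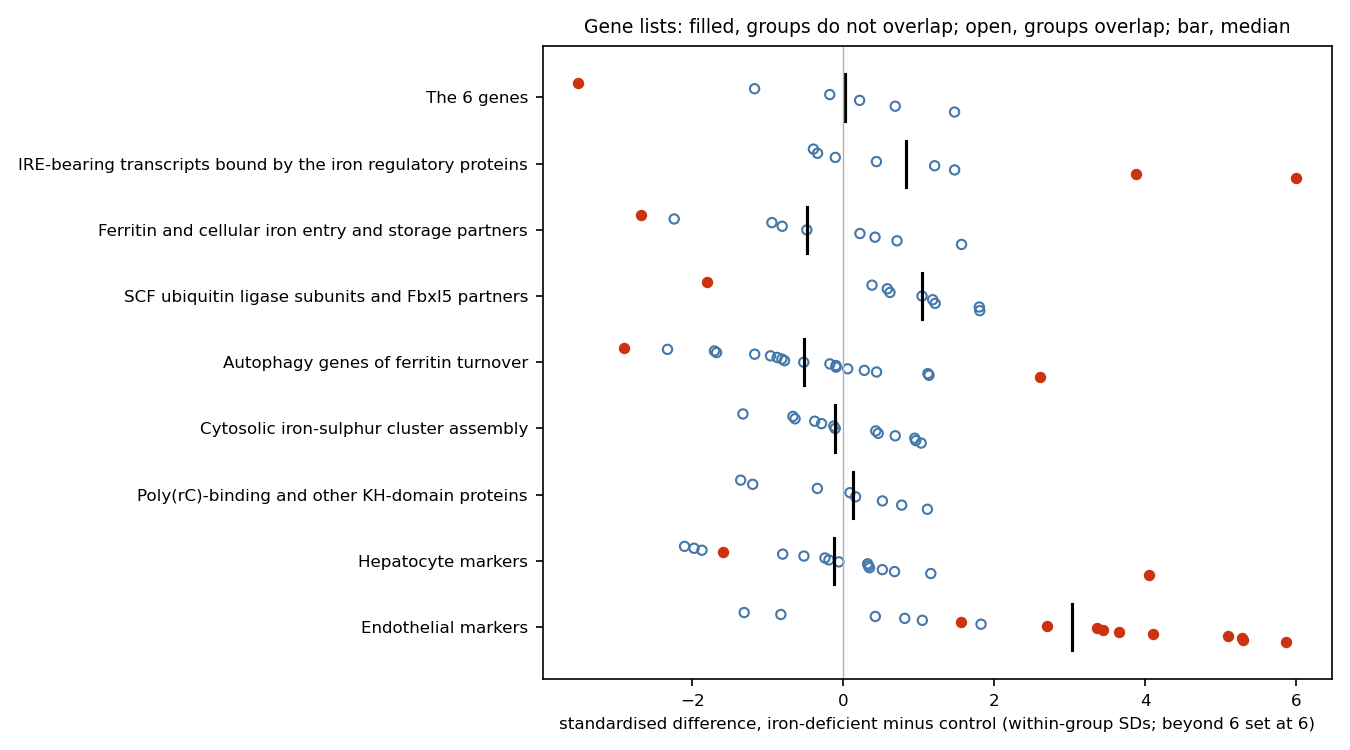
Standardised difference between diets (x axis, within-group SDs, iron-deficient minus control) of each measured gene, taken from its brightest probe set, in the 6 genes, their pathway lists and the hepatocyte and endothelial marker lists. Filled points are genes whose groups do not overlap, open points genes whose groups overlap, and black bars medians; Tfrc, at 17.4, is drawn at 6. The pathway lists hold few filled points beside Tfrc and Slc11a2, and the endothelial markers hold 10.

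The genes whose values followed each member most closely over the 8 arrays are given as a description. They were sought among the 20826 probe sets with 1 symbol, those of the member itself left out, and the best of so many is high by choice. For Fbxl5 these were Rab3d, Ccnd1 and Odr4, with Pearson correlations of 0.987, 0.981 and 0.978. All 3 were lower in iron-deficient livers without overlap, against 3.41% of all probe sets. That follows largely from the choice, since Fbxl5 itself was lower without overlap. For Ireb2 they were Phf6, Map4k5 and Gars1 at 0.987, 0.985 and 0.984. For Aco1 they were Tgm2, Atp5if1 and Eef1akmt2 at 0.964, 0.961 and 0.952, and for Ncoa4 they were Kmo, Zmynd8 and Pcsk4 at 0.963, 0.955 and 0.955. For Pcbp1 they were Slc33a1, Ppp6c and Ccnf at 0.977, 0.967 and 0.961, and for Pcbp2 they were Poldip2, Gabra6 and Zbtb33 at 0.980, 0.978 and 0.977. Between probe sets of different members there were 25 pairs, whose correlations over the 8 arrays, the difference between diets included, ran from -0.61 to 0.75, and 7 of them were above 0.5 in size. Ireb2 was in 3 of these, with Pcbp2 1398941_at (0.73), Pcbp1 (0.61) and Fbxl5 (-0.54). Aco1 was in 2, with Ncoa4 (0.58) and Pcbp2 1398941_at (0.53). Pcbp1 correlated at 0.75 with Pcbp2 1395792_at and at -0.61 with Pcbp2 1390372_at. The share of pairs above 0.5 in size among all probe sets was not computed, so these pairs are a description only. The 2 dimmer Pcbp2 probe sets, 1390372_at and 1395792_at, correlated at -0.85.

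**Figure D4:**
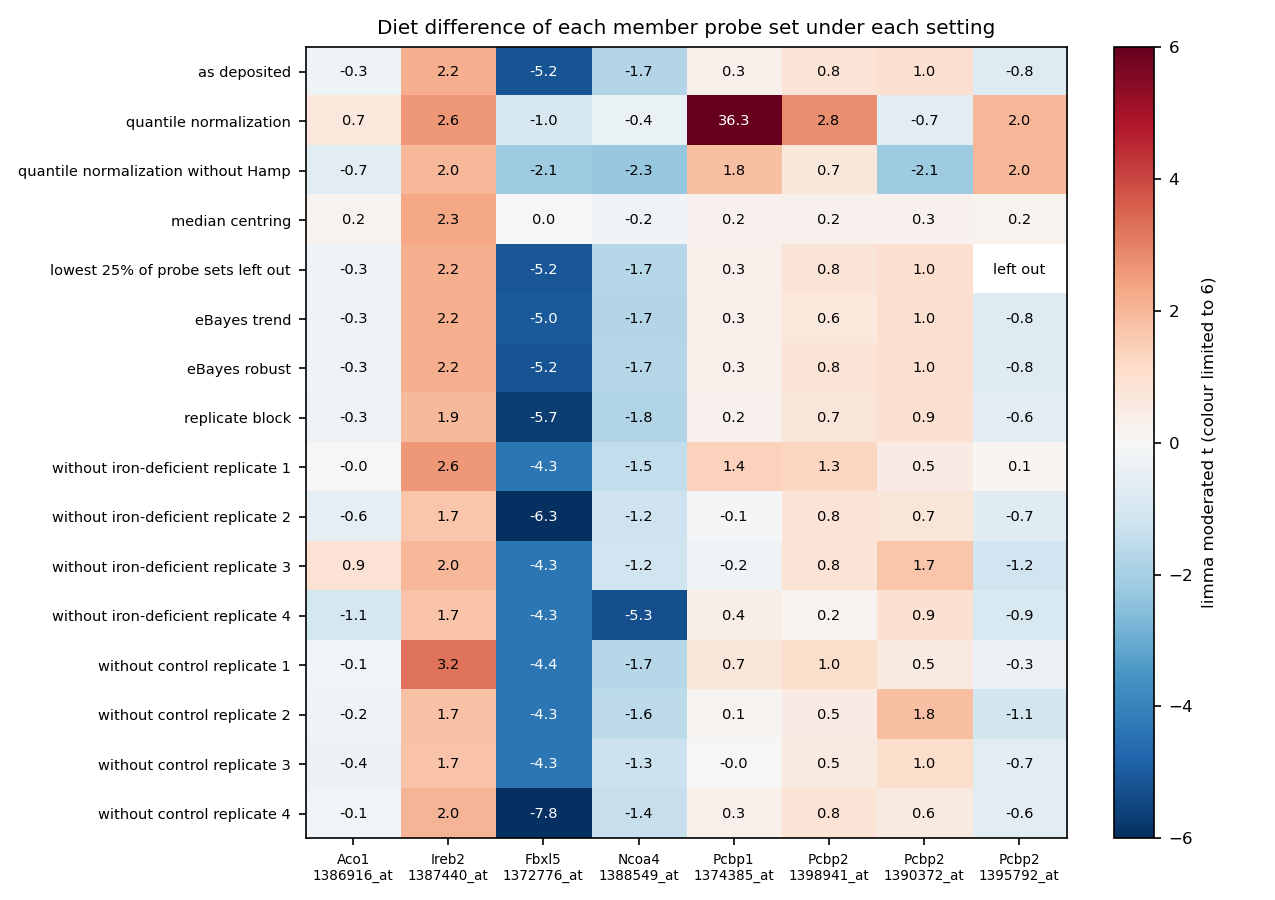
Moderated t of limma (colour and number, iron-deficient minus control) for each member probe set (columns) as deposited, under each alternative and with each array left out (rows). Fbxl5 stays negative in all rows but median centring, where its t is near 0, Ireb2 stays positive in all, and Pcbp1 is far out only under quantile normalization of all probe sets.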

How the data were processed

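The authors deposited 1 table of log2 values, 1 per probe set and array, for liver RNA hybridised as biotin-labelled cRNA to Affymetrix arrays, per the labels' protocols. The log2 unit was read from the values, which run from 5.32 to 16.1. The summarisation of probes and the normalization of arrays are not given in the sources used here. After 57 control probe sets were removed, 31042 were tested, of which 20826 carried 1 symbol, 436 several and 9780 none. Symbols were updated by gene identifier for 20758. The contrast, iron-deficient minus control over the 8 arrays, was estimated in R 4.3.3 with limma 3.58.1 (lmFit, eBayes), and Benjamini-Hochberg adjustment at 0.05 covered all 31042 probe sets. The 4 arrays per group, labelled biological replicates, limit the precision. Members and lists were chosen with earlier results of these data known. Named genes were every member probe set, list genes past the threshold, the 3 list genes with the largest standardised difference, fixed partners, and the 3 genes most correlated with each member. On simulated arrays with 31042 probe sets and the real spread, some probe sets were shifted by 2, 4, 8 and 16 SD. Of these limma recovered 0%, 26%, 88% and 100%, with 8 false calls. The simulated noise was independent between probe sets, so recovery in the real data may differ. Alternatives were quantile normalization (with and without Hamp), median centring, leaving out the dimmest 25% of probe sets, trend and robust variances, a replicate block, the mean of a gene's probe sets and leaving out each array.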

Additional observations from a re-analysis of the deposited data

Results flagged for a closer look

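Iron-deficient replicate 2 of Fbxl5, at 8.963700, stood apart from the other 3 iron-deficient livers. Its gap to the nearest of them was 0.845 of the range of the group, above the critical value of Dixon's test for 4 samples. It was the iron-deficient liver nearest to the controls. Without it Fbxl5 differed by -4.89e-05 (limma adjusted p = 0.188). Groups were examined 58 times for such a gap, and chance gives about 1 in 20.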

How the results depend on the processing

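No member passed under any alternative except Pcbp1 under quantile normalization (0.00328, limma adjusted p = 3.26e-07), where 1 member probe set and 1093 of all probe sets passed. With Hamp left out before that step, 83 of all passed and no member, and under median centring 63 and no member. With each array left out the count over all ran from 4 to 27 and that of members was 0. Of the other named genes, Epas1, Tax1bp1, Skp1 (higher) and Gabarap (sign turned to higher) also passed under quantile normalization, and Tfr2 passed as lower, its sign turned, when Hamp was left out. Their values stand beside the results. Tax1bp1, Skp1 and Gabarap shared the same SE under quantile normalization, so their calls there do not measure spread between livers. Ireb2 and Ncoa4 kept their sign throughout. So did the Pcbp2 probe set 1398941_at, whose difference as deposited was only 9.85e-07 (limma adjusted p = 0.820). The cause of the changes below was not tested.

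Under quantile normalization the sign turned for Aco1 (1.73e-04), the Pcbp2 probe sets 1390372 (-2.21e-05) and 1395792 (8.20e-05, also without Hamp), Slc11a2 (-1.74e-05), Tfr2 (-8.80e-05), Ube2m (4.71e-04), Gabarap (0.00253), Map1lc3a (6.44e-05), Ciao2b (1.21e-04), Dohh (4.00e-04) and Fubp3 (-1.63e-04). With Hamp left out it turned for Pcbp2 1390372 (-1.28e-04), Slc11a2 (-1.05e-04), Tfr2 (-9.45e-04, limma adjusted p = 0.00503), Snai1 (-4.80e-05), Ube2m (2.41e-04), Map1lc3a (3.01e-05), Ciao2b (4.45e-05), Nubp1 (-2.01e-04), Ciao2a (-2.46e-04), Dohh (8.89e-05) and Fubp3 (-2.76e-04). Median centring adds 5.06e-05 to every difference, which by its size turned Fbxl5 (7.05e-06), Aco1 (4.77e-05), Pcbp2 1395792 (4.86e-05), Slc25a28 (2.66e-05), Ube2m (4.76e-05), Gabarap (4.86e-05), Map1lc3a (3.45e-05), Ciao2b (4.37e-05) and Dohh (3.54e-05). With each array left out, Aco1 ran from -1.04e-05 to 6.52e-06, Pcbp1 from -5.81e-07 to 2.95e-06 and Pcbp2 1395792 from -3.24e-06 to 1.73e-07.

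Same-numbered arrays of the 2 diets correlated at -0.11, 0.02, -0.03 and -0.08 in their deviations from the group means. No control array correlated best with its own number, and of the iron-deficient arrays only replicate 2 did. The labels do not say that the numbers pair rats, so they were not taken to do so. With the replicate number as a block 1 probe set passed, no member did (Fbxl5 adjusted p = 0.361), and both Tfrc probe sets had an adjusted p of 0.176 in limma. With 4 arrays per group, a missing call does not show that a transcript was unchanged.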
